A study of Mus musculus with 16 samples.

Results

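The colony-stimulating factors and their receptors were followed through pulmonary ECs as 7 genes chosen by name among the 54532 genes of each table: the factors Csf1, Csf2 and Csf3 and the receptor genes Csf1r, Csf2ra, Csf2rb and Csf3r. All 7 were found in both tables. Csf1 encodes macrophage colony-stimulating factor (M-CSF), Csf2 granulocyte-macrophage colony-stimulating factor (GM-CSF) and Csf3 granulocyte colony-stimulating factor (G-CSF), secreted proteins that drive the growth, survival and activation of myeloid cells. M-CSF acts through the receptor tyrosine kinase made from Csf1r on monocytes and macrophages, G-CSF through the product of Csf3r on neutrophils and their precursors, and GM-CSF through an alpha chain from Csf2ra that pairs with the beta chain from Csf2rb and signals by JAK2 and STAT5. In the lung, GM-CSF made by the epithelium is required for alveolar macrophages to mature and clear surfactant, and stimulated ECs are among the known sources of all of these factors, while the receptors are known chiefly from leukocytes.

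RNA-seq was measured in bulk on ECs isolated from mouse lung with magnetic beads, by removal of cells that carry CD45 (encoded by Ptprc) and capture of cells that carry CD31 (encoded by Pecam1). In the first experiment male WT C57/BL6J mice, 8 weeks old, received saline (n = 4) or 10 mg/kg lipopolysaccharide, a component of the bacterial outer membrane (LPS group, n = 6), into the trachea. In the second, Fgfr1 loxP/loxP mice (n = 3) and their Fgfr1 iΔEC/iΔEC littermates (n = 3) all received 2 mg/kg LPS, so no group without LPS is part of it. RNA was taken from lungs harvested after 24 h in all groups. The iΔEC/iΔEC mice carry VE-cadherin-CreERT2, a tamoxifen-inducible recombinase driven by an endothelial promoter, and mice of both genotypes were injected with tamoxifen (100 mg/kg). The paper describes the knockout as made in adult mice, and an age in weeks is not given for this experiment. The labels do not say whether each library came from a separate animal, so the p-values measure the spread between libraries. Values are FPKM, which divides the fragments of a gene by gene length and library size. Levels can so be set side by side between genes as far as the length used fits the transcripts present. Reads on genes numbered 13478726 to 18807007 in the saline group, 17840221 to 19043015 in the LPS group, 15969575 to 17002788 in loxP/loxP mice and 16642177 to 16943522 in iΔEC/iΔEC mice.

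The labelled cell type was checked first. Pecam1 averaged 400 ± 81.5 FPKM in the saline group (SD, n = 4) and 358 ± 76.8 in the LPS group (n = 6), and Cldn5, a tight junction gene of ECs, 1533 ± 893 and 1058 ± 442. Ptprc, the gene of the protein on which leukocytes were removed, was also read in every library, at 11.0, 7.44, 3.53 and 5.93 FPKM in saline 1 to 4 and at 22.1 to 52.7 FPKM in the LPS group (median 30.5). Saline 1 had the highest neutrophil markers of the saline libraries, averaging 5.53 on the log2(FPKM + 1) scale, against 2.42, 3.83 and 2.47 in saline 2, 3 and 4. Its level of Csf1 lay below the others. The changes of the members and of the marker lists they are set against are therefore also given without saline 1, as are those of some pathway genes. The rule for far libraries given at the end flagged saline 1 for Csf1 but not for the neutrophil list, and saline 3 for the lymphocyte and fibroblast lists.

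Csf2 and Csf3 were barely read in the saline group, Csf1 was read at a clear level there, and all 3 factors were higher in every LPS library than in any saline library. Csf1 lies on chromosome 3 (GRCm38, chr3:107741048-107760469, minus strand) and was read at 8.37, 21.6, 23.3 and 22.1 FPKM in saline 1 to 4 and at 50.9 to 69.2 FPKM in the LPS group, with a median of 58.7. The groups did not overlap, and saline 1 was the lowest library by a wide margin. On the log2(FPKM + 1) scale, on which changes of low genes are understated, Csf1 rose by 1.70 (SE 0.25, limma adjusted p = 0.000245), from a mean of 18.8 ± 7.01 to 59.6 ± 8.13 FPKM (SD, n = 4 and 6). Without saline 1 the rise was 1.37 (limma adjusted p = 2.31e-05). For this and the following genes, a change in the number of cells of a type and a change in RNA per cell cannot be told apart in bulk RNA.

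Csf2 (chr11:54247271-54249667, minus strand) had 0, 7, 0 and 6 reads in saline 1 to 4, or 0, 0.395, 0 and 0.381 FPKM, and 8.15 to 26.3 FPKM in the LPS group with a median of 15.8. Each LPS library held at least 120 reads of it, so the groups were far apart, although the LPS libraries themselves spread widely. The rise on the log2(FPKM + 1) scale was 3.78. Csf2 reached the minimum of 0.5 FPKM for testing through the LPS group alone, so this value is a description without a p-value. From the summed reads, 13 in the saline and 1392 in the LPS group, the level in LPS was 72.6 times that in saline, with a 95% counting interval of 42.3 to 137 that covers counting error only. An antisense gene, Gm12223, overlaps Csf2, and the sources used here do not say whether strand was used in counting.

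Csf3 (chr11:98701263-98703629, plus strand) was the member with the largest change. Its reads in saline 1 to 4 numbered 0, 1, 0 and 4, or 0, 0.032, 0 and 0.144 FPKM, and in the LPS group it was read at 23.1 to 53.8 FPKM with a median of 34.0. No LPS library held fewer than 620 reads of it, and no saline library more than 4. Csf3 rose by 5.10 on the log2(FPKM + 1) scale, a description without a p-value for the same reason as for Csf2. Its summed reads, 5 in saline and 5535 in LPS, give a ratio of 751 with a counting interval of 322 to 2314. For Csf3 the log2 change was 8.02 with a pseudocount of 0.1 FPKM in place of 1 and 9.55 by limma-voom on the reads, and for Csf2 6.11 and 6.75, since both genes were near 0 in saline. Without saline 1 the changes on the log2(FPKM + 1) scale were 5.08 and 3.70.

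**Figure D1:**
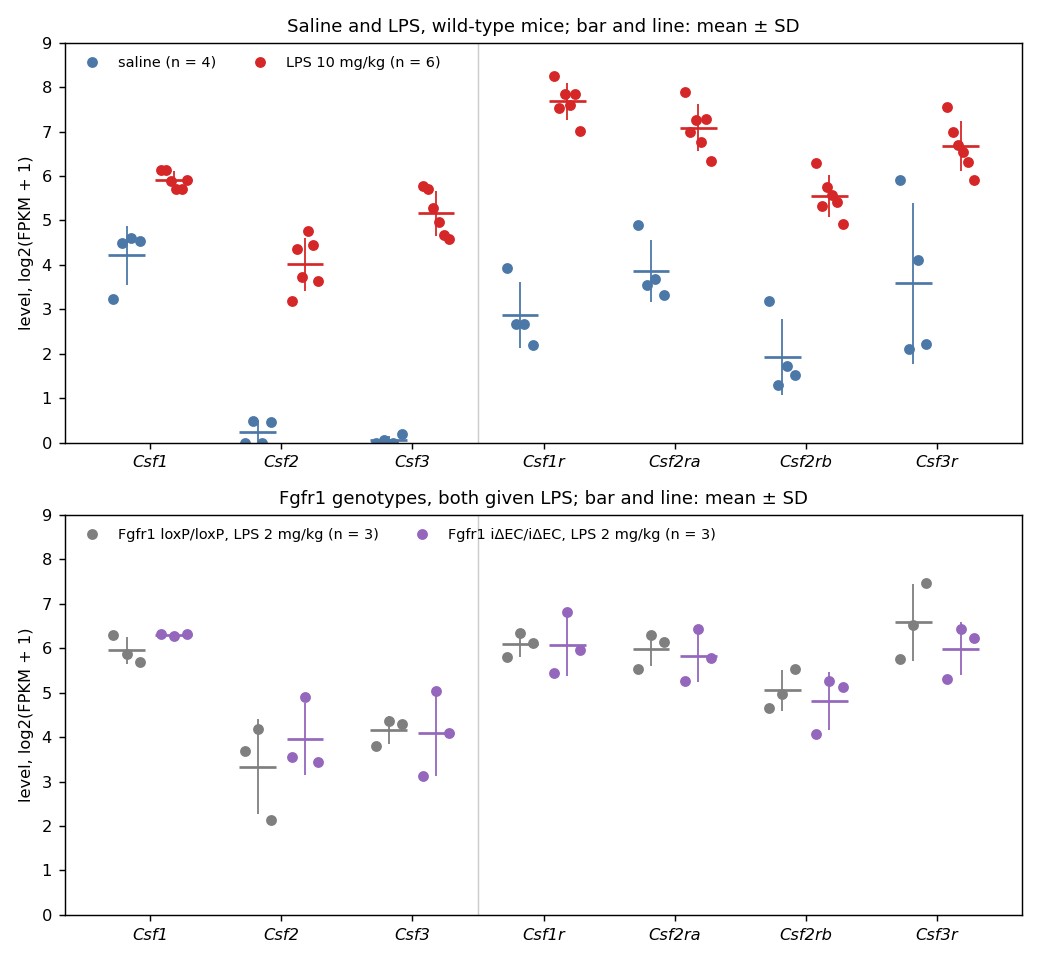
Level of the 7 members in each library, as log2(FPKM + 1), with saline and LPS above and the Fgfr1 genotypes below. Points are libraries in the order of their replicate numbers, bars are group means and vertical lines SD, and in the upper panel every LPS point lies above every saline point of the same gene, while in the lower panel the genotypes overlap for all 7.

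The receptor genes were likewise higher in every LPS library than in any saline library. Csf1r (chr18:61105572-61132149, plus strand) was read at 14.1, 5.39, 5.41 and 3.60 FPKM in saline 1 to 4 and at 128 to 303 FPKM in the LPS group, with a median of 210. Saline 1 was the highest saline library, yet the lowest LPS library was far above it. The mean went from 7.13 ± 4.73 to 211 ± 58.4 FPKM, a rise of 4.81 on the log2(FPKM + 1) scale (SE 0.31, limma adjusted p = 1.32e-06), and of 5.16 without saline 1. Hmgxb3, on the opposite strand, overlaps Csf1r.

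Csf2ra, the gene of the alpha chain that binds GM-CSF (chr19:61224402-61228418, minus strand), was read at 28.7, 10.7, 11.9 and 9.01 FPKM in saline 1 to 4. The LPS group ranged from 79.4 to 236 FPKM with a median of 139. The groups did not overlap, and saline 1 was again the highest of its group. Csf2ra rose by 3.23 (SE 0.34, limma adjusted p = 2.68e-05), and by 3.57 without saline 1.

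Csf2rb, the gene of the beta chain shared by the receptors for GM-CSF, IL-3 and IL-5 (chr15:78325752-78353847, plus strand), was read at 8.13, 1.45, 2.32 and 1.89 FPKM in saline 1 to 4 and at 29.1 to 77.8 FPKM in the LPS group, with a median of 44.2. Here too the groups lay apart, with saline 1 highest among the saline libraries. The rise was 3.61 (SE 0.36, limma adjusted p = 1.84e-05), and 4.03 without saline 1. Csf2rb has a neighbouring paralog, Csf2rb2 (chr15:78282507-78305721, minus strand), whose product in the mouse is a beta chain specific to IL-3. Of the 50-base windows of the longest Csf2rb transcript in GENCODE M21, 18.4% are found without a mismatch in Csf2rb2, and of the 150-base windows 3.47%, so reads in these stretches cannot be placed on either gene with certainty. Csf2rb2 was read at 4.69, 1.13, 0.98 and 3.13 FPKM in saline 1 to 4 and at 14 to 34.6 FPKM in the LPS group (median 21.1), and rose by 2.82 (SE 0.32, limma adjusted p = 4.55e-05), or by 3.10 without saline 1 (adjusted p = 2.49e-05). The sum of the FPKM of the paralogs was higher by 3.51 in LPS (two-sided exact permutation p = 0.00952).

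Csf3r (chr4:126024550-126044440, plus strand) was the member with the widest spread in saline, at 58.8, 3.29, 16.4 and 3.62 FPKM in saline 1 to 4. The LPS group ranged from 59.7 to 187 FPKM with a median of 97.7, so that the groups just missed overlapping and saline 1 lay next to the lowest LPS library. The change was 3.09 (SE 0.65, limma adjusted p = 0.00241), with a 95% interval of 1.65 to 4.52, the widest of the 7. Without saline 1 it was 3.86 (adjusted p = 9.84e-05), and with saline 2 and 4 alone as the control, a choice made after seeing the data, 4.51 (limma adjusted p = 3.33e-05).

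Thus 5 of the 5 members above the testing minimum in both groups, Csf1 and the receptor genes, were called higher in LPS. The limits were an adjusted p of 0.05 and a log2 change of 1. Csf2 and Csf3 passed them too, but are not counted, as they reached the testing minimum through the LPS group alone. Over all genes, 1768 of the 14893 tested (11.9%) passed in the direction of LPS and 1011 (6.79%) in that of saline. This balance depended on the scaling, with 1373 genes higher and 1440 lower when libraries were scaled on total reads and 1366 and 1326 after quantile normalization. Csf1 and the receptor genes were called higher under both. In all 7 the lowest LPS library was above the highest saline library, which was so for 3376 genes (22.7%), and the reverse held for 2492 (16.7%). For Csf1 and the receptor genes the two-sided exact permutation p was 0.00952, the smallest that 4 libraries against 6 can give. Csf2 and Csf3 passed the minimum of 0.5 FPKM required for testing through the LPS group alone, with saline means of 0.194 and 0.044 FPKM, whereas the other 5 were above it in both groups. By the size of the log2 change, Csf3 stood at place 31 of all genes tested, Csf1r at 43, Csf2 at 126, Csf2rb at 153, Csf2ra at 206, Csf3r at 229 and Csf1 at 744. The order of Csf2 and Csf1r depended on the scale. With a pseudocount of 0.1 FPKM their changes were 6.11 and 5.01, and by limma-voom 6.75 and 5.09. The median change of the 7 was 3.61, and that of all genes tested 0.01.

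**Figure D2:**
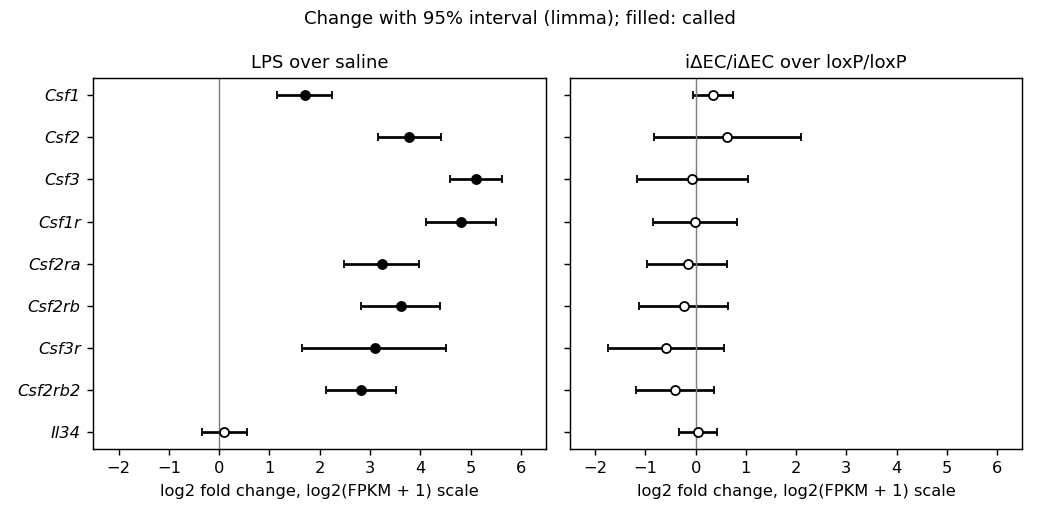
Log2 fold change on the log2(FPKM + 1) scale with its 95% interval (limma) for the 7 members, the Csf2rb paralog Csf2rb2 and Il34, for LPS over saline on the left and iΔEC/iΔEC over loxP/loxP on the right, with filled points for genes that passed both limits. On the left all genes but Il34 are filled, with Csf3 at 5.10 and Csf1 at 1.70, and on the right no point is filled and every interval holds 0. The filled points of Csf2 and Csf3 are not counted as calls, as these genes reached the testing minimum through the LPS group alone.

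The order of the levels differed between the groups. In saline, Csf3r had the highest mean (20.5 FPKM), followed by Csf1 (18.8), Csf2ra (15.1), Csf1r (7.13), Csf2rb (3.45), Csf2 (0.194) and Csf3 (0.044). Csf3r owed its place to saline 1, the library of the 4 in which it was above Csf1, and Csf2rb and Csf2 were the neighbours whose ranges did not overlap. In LPS the order was Csf1r (211 FPKM), Csf2ra (143), Csf3r (108), Csf1 (59.6), Csf2rb (47.9), Csf3 (36.7) and Csf2 (16.4). The ranges of all neighbours in this order overlapped between libraries, but within a library Csf1r was above Csf2ra, Csf2ra above Csf3r, Csf3r above Csf1 and Csf3 above Csf2 in 6 of 6, and Csf1 was above Csf2rb and Csf2rb above Csf3 in 5 of 6. The FPKM of Csf2ra was 3.53 to 7.33 times that of Csf2rb in the saline libraries (median 4.95) and 2.3 to 3.74 times in the LPS libraries (median 2.94). In the second experiment it was 1.52 to 2.57 times in loxP/loxP and 1.62 to 2.37 times in iΔEC/iΔEC libraries. These ratios and the order of the levels depend on the gene length used, which was 7277 bases for Csf2rb. The longest Csf2rb transcript in GENCODE M21 has 4900 bases.

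Within the LPS group the members did not follow the same libraries. LPS 1 was highest and LPS 6 lowest for all 4 receptor genes, and the same libraries were highest and lowest for Ptprc. Csf3 had the same extremes, at 53.8 FPKM in LPS 1 and 23.1 FPKM in LPS 6, and the part of leukocytes in its level was not tested. For Csf2 the order was another: LPS 1 was the lowest library at 8.15 FPKM and LPS 4 the highest at 26.3. Csf1 differed little between the LPS libraries, with an SD of 8.13 on a mean of 59.6 FPKM.

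Markers of leukocytes moved with the receptors. The bead fraction was described by 10 lists of markers, each averaged over its genes as log2(FPKM + 1) in a library and compared by a two-sided exact permutation test with adjustment over the 10 lists. The leukocyte list (6 genes, Coro1a the most abundant) was at 5.09, 4.54, 3.60 and 4.35 in saline 1 to 4 and at 6.46 to 7.70 in LPS, a difference of 2.78 (exact permutation p = 0.00952, adjusted 0.0317), and 6 of its 6 genes rose by limma. The monocyte and macrophage list (8 genes, Lyz2 the most abundant) lay at 2.80 to 3.33 in saline and 5.94 to 7.09 in LPS, higher by 3.50 (exact permutation p = 0.00952, adjusted 0.0317), with 8 of 8 genes called. Neither list had overlapping groups. In the neutrophil list (8 genes, S100a9 the most abundant) the difference was 2.08 (exact permutation p = 0.0286, adjusted 0.0571) and 5 of 8 genes rose, but the groups overlapped, since saline 1 at 5.53 lay within the LPS range of 4.71 to 6.57. Without saline 1 the neutrophil groups were apart and the difference was 2.73 (exact permutation p = 0.0238, the smallest that 3 against 6 can give), with 7 of 8 genes called, while the differences were 3.01 for the leukocyte list and 3.59 for the monocyte and macrophage list, again with groups apart.

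The endothelial list (10 genes) was at 7.75 to 8.01 in saline and 6.28 to 7.41 in LPS, lower by 0.80 on average (exact permutation p = 0.00952, adjusted 0.0317), with Kdr, Tek, Tie1 and Vwf called lower by limma. Without saline 1 its difference was -0.74, and Vwf, at -0.85, was not called (limma adjusted p = 0.0439, under the fold limit). Differences in the dendritic (0.14, adjusted exact permutation p = 0.265), lymphocyte (-1.01, adjusted 0.0635), mast cell and basophil (-0.05, adjusted 0.762), epithelial (-0.57, adjusted 0.265), fibroblast (-0.47, adjusted 0.0571) and mural (-0.38, adjusted 0.265) lists did not pass. Without saline 1 the epithelial list differed by -0.23 and the mural list by -0.17. No marker of the 10 lists was under 0.1 FPKM in every library. Some stayed near that level, so this does not show that each of these cell types was present. Summed over the list, the leukocyte markers came to 227, 156, 76.5 and 138 FPKM in saline 1 to 4 and to 1554, 1408, 1049, 1096, 1191 and 641 FPKM in LPS 1 to 6, the monocyte and macrophage markers to 420 to 1187 and 2095 to 4527 FPKM, and the neutrophil markers to 73.3 to 1360 and 1232 to 6537 FPKM. The part of these cells in the rise of the members was not tested.

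Each member was then set against the mean of the marker list of the cells it is known from, as a difference in log2(FPKM + 1) within a library, in 7 comparisons for which unadjusted p-values are given. Csf1r was at -0.18 relative to the monocyte and macrophage list in saline and at 1.13 in LPS, higher by 1.31 with groups apart (two-sided exact permutation p = 0.00952). This is a difference from the mean of the list and not from each of its genes, since the ratio of mean FPKM between LPS and saline was 29.6 for Csf1r, 29.7 for Adgre1, 38.2 for Fcgr1 and 71.2 for Msr1, but 3.96 for Lyz2 and 6.77 for Chil3, and the pseudocount lowers the log2 change of markers near 0 in saline such as Msr1 (0.423 FPKM) and Fcgr1 (0.724 FPKM). Csf3r was at 0.02 relative to the neutrophil list in saline and 1.03 in LPS, higher by 1.01 with overlapping groups (exact permutation p = 0.019), although S100a8 and S100a9 of that list had larger log2 changes (3.91 and 3.73) than Csf3r (3.09). Csf2rb moved from -2.46 to -1.63 relative to the leukocyte list, with overlapping groups (exact permutation p = 0.0381), and the difference for Csf2ra, from -0.53 to -0.09, did not pass (exact permutation p = 0.162). The factors were set against the endothelial list, which was lower in LPS: relative to it, Csf1 was higher by 2.49, with groups apart and an exact permutation p of 0.00952. Csf2 and Csf3 were higher by 4.58 and 5.90, but with at most 7 reads in any saline library their saline values relative to the list are set by the pseudocount and the endothelial mean, so these differences are a description with no test. Without saline 1, Csf3r was higher by 1.12 and Csf1r by 1.57 relative to their lists, with groups apart (exact permutation p = 0.0238 for both), and Csf2rb by 1.02 (exact permutation p = 0.0476). Relative to the endothelial list, Csf1 was then higher by 2.11, with groups apart, and the values for Csf2 and Csf3 were 4.45 and 5.83. None of the factors was set against a leukocyte list, although Csf3 was highest and lowest in the same LPS libraries as Ptprc.

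**Figure D3:**
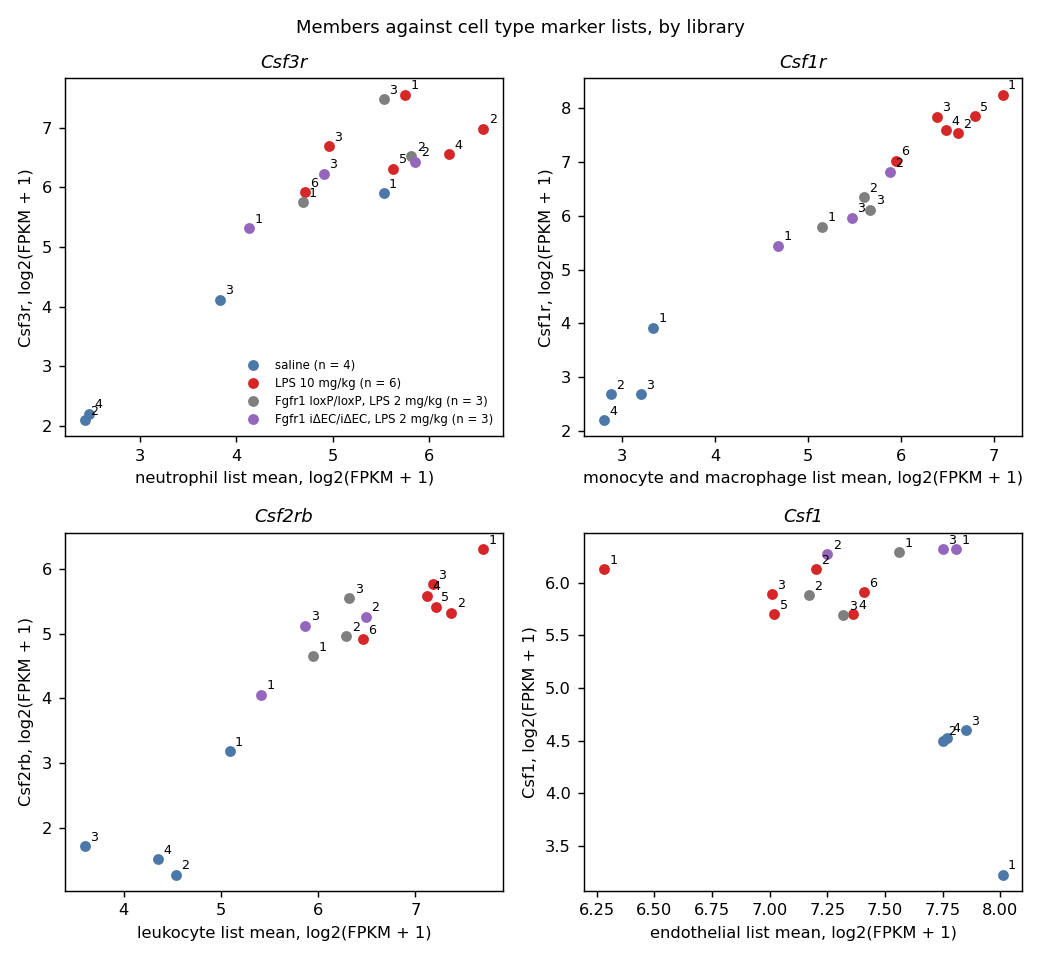
Level of Csf3r, Csf1r, Csf2rb and Csf1 (vertical axis, log2(FPKM + 1)) against the mean of the neutrophil, monocyte and macrophage, leukocyte and endothelial marker lists (horizontal axis, same scale), with a point for each library and its replicate number, coloured by group, levels of the 2 experiments having been normalized separately. Receptor genes and leukocyte markers are low together in saline and high together in LPS, with saline 1 the saline library nearest the LPS group for Csf3r, while Csf1 is higher in LPS although the endothelial list is lower there.

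Promoter sequences of Csf1, Csf2, Csf2ra and Csf3r were read from the RefSeq promoter table of GRCm38.p6. Those of Csf3, Csf1r and Csf2rb were not analysed here. Each window holds 250 bases before and 50 after the start of the gene, and it was searched on both strands for an NF-kB motif (GGGNNNTTCC), the core of the CK-1 element known from cytokine promoters (GAGATTCC), the core of the site of the myeloid factor PU.1, the product of Spi1 (GAGGAAG), and a STAT motif (TTCNNNGAA). These motifs were found in 5.56%, 0.904%, 13.6% and 8.3% of the 32851 promoters in the table. The windows of members with a match are shown because they set a factor gene beside 2 receptor genes that rose with it, from 5′ to 3′ on the strand of the gene with matches in capitals. They are chr3:107760420-107760719 for Csf1 (minus strand), chr19:61228369-61228668 for Csf2ra (minus strand) and chr4:126024409-126024708 for Csf3r (plus strand).
Csf1: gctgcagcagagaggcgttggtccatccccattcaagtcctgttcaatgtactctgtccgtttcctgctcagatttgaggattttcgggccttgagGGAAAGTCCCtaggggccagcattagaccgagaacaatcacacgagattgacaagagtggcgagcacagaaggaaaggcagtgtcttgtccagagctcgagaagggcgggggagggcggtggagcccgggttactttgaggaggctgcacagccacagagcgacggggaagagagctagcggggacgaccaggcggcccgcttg
Csf2ra: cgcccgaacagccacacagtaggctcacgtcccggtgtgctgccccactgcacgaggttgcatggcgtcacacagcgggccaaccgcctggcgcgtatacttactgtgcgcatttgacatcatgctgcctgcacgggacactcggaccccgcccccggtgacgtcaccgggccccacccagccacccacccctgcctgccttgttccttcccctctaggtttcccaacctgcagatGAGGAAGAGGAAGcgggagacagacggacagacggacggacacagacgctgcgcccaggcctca
Csf3r: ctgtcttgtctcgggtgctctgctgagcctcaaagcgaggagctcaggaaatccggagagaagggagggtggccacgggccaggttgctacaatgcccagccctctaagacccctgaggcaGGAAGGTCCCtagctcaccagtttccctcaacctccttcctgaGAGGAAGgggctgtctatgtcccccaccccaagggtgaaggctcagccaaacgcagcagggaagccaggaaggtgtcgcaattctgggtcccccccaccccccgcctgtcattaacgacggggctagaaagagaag
In the Csf1 window the capitals mark an NF-kB match on the opposite strand that begins 154 bases before the start. The Csf2ra window holds 2 overlapping PU.1 core matches, which begin 14 and 8 bases before the start. The Csf3r window holds an NF-kB match on the opposite strand at 129 bases and a PU.1 core match at 86 bases before the start. The window of Csf2 (chr11:54249850-54250149, minus strand) held none of the 4 motifs. Its RefSeq start, however, lies 232 bases upstream of the deposited gene start. The window ends before that gene start, so the bases next to it were not searched. For Csf3r the RefSeq start lies 109 bases from the deposited gene start. The window of the paralog Csf2rb2, which is not shown, held 3 matches, of the PU.1 core and the STAT motif. A match is a run of letters and shows no binding.

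Genes of the surrounding pathway were counted from lists drawn up by function. Over all genes tested, 11.9% were called higher in LPS and 6.79% lower, the shares to set beside the counts of each list. Among 9 related ligands and receptors, of which Il3, Il5 and Il5ra were too low to be tested, Csf2rb2 rose and Kit and Flt3l fell. Kit, the receptor of stem cell factor and a relative of Csf1r, was read at 77.2 to 102 FPKM in saline and 23.9 to 45.2 FPKM in LPS, and fell by 1.41 (limma adjusted p = 9.24e-05). Flt3l, the gene of the FLT3 ligand, a growth factor of dendritic cell precursors, went from 5.89 ± 1.77 to 1.83 ± 0.491 FPKM and fell by 1.26 (limma adjusted p = 0.000243). Il34, the second ligand of the receptor from Csf1r, was at 1.51 ± 0.318 FPKM in saline and 1.76 ± 0.761 in LPS, a difference of 0.10 with a 95% interval of -0.35 to 0.56 (limma adjusted p = 0.692). Csf1 was 5.17 to 21.4 times as high as Il34 in the saline libraries and 18.4 to 78 times in the LPS libraries. The median change of the 6 genes tested was -0.41, and without saline 1 Kitl, the gene of stem cell factor, was called lower as well (-1.07, limma adjusted p = 0.00267, against -0.91 with it).

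In the signal transduction list 8 of 21 genes rose and 0 fell, with a median change of 0.88. Without saline 1, 11 of 21 were called, with Jak2, Grb2 and Bcl2l1 added. Among those with a large rise were Tyrobp, the adaptor DAP12 (57.3 ± 61.4 to 852 ± 270 FPKM, log2 change 4.30, limma adjusted p = 5.19e-05, and 4.93 without saline 1), Ptpn6, the phosphatase SHP-1 that limits signalling of these receptors (3.77, adjusted p = 5.27e-06), and Pik3cd, a catalytic subunit of PI3 kinase found mainly in leukocytes (1.91, adjusted p = 0.000193). These are genes known from leukocytes, whose markers were higher in the same libraries, and the part of those cells in their rise was not tested. The kinase and the transcription factors that the GM-CSF receptor uses were not called with all libraries: Jak2 differed by 0.88 (limma adjusted p = 0.00224, under the fold limit) and by 1.01 without saline 1 (adjusted p = 0.00111), Stat5a by 0.33 (adjusted p = 0.0502) and Stat5b by -0.03 (adjusted p = 0.799).

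Of the feedback inhibitors of cytokine receptors, 2 of 4 rose. Socs3, which restrains the G-CSF receptor, went from 48.9 ± 55 to 201 ± 60.5 FPKM and rose by 2.48 (limma adjusted p = 0.0014), although saline 1, at 131 FPKM, lay within the LPS range, and without that library the rise was 3.12 (limma adjusted p = 7.43e-06). Socs1 rose by 1.19 (limma adjusted p = 0.0001), whereas Cish, a STAT5 target, differed by -0.22 (adjusted p = 0.155) and Socs2 by -0.47 (adjusted p = 0.0566). Without saline 1, Cish differed by -0.13 (limma adjusted p = 0.348) and Socs2 by -0.24 (limma adjusted p = 0.117). The median of the list was 0.49. Among the myeloid transcription factors 8 of 9 rose, with a median of 1.71, and Gfi1 (0.39, limma adjusted p = 0.0675) did not pass. Spi1, the gene of PU.1, went from 9.62 ± 6.89 to 212 ± 66.5 FPKM (4.46, adjusted p = 5.59e-06), Cebpb rose by 4.29 (adjusted p = 0.000207) and Cebpd by 1.84 (adjusted p = 0.0112, with overlapping groups). The leukocyte and the monocyte and macrophage markers were higher in the same libraries, by 2.78 and 3.50, and their part in the rise of these factors was not tested. Without saline 1 the changes of Spi1, Cebpb and Cebpd were 4.84, 5.12 and 2.52 (limma adjusted p = 2.56e-06, 1.65e-06 and 5.69e-05). In the list of factors that control the stability of cytokine mRNA, 2 of 7 rose, Zc3h12a, the RNase Regnase-1, by 2.43 (limma adjusted p = 1.78e-05) and Zfp36, tristetraprolin, which is known to bind Csf2 mRNA, by 1.34 (adjusted p = 0.0101, with overlapping groups), or by 1.80 without saline 1 (adjusted p = 0.000165). The median of this list was 0.35.

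**Figure D4:**
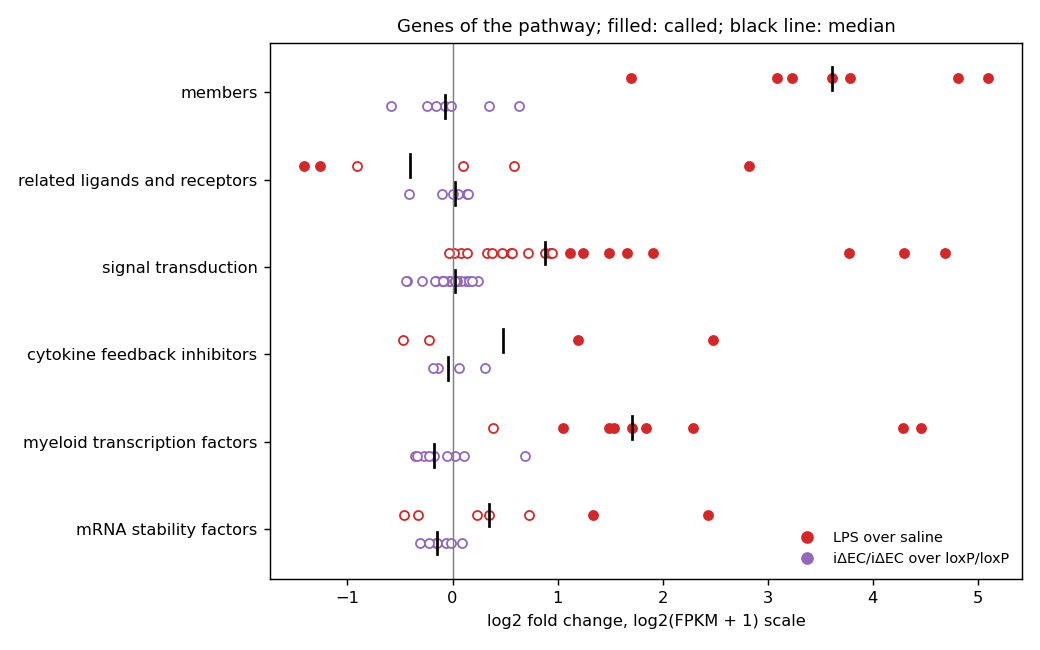
Log2 fold change on the log2(FPKM + 1) scale of each gene tested in the members and in the 5 pathway lists, in red for LPS over saline and in purple for iΔEC/iΔEC over loxP/loxP, filled where the gene passed both limits, with black lines at the list medians. The members lie furthest to the right for LPS (median 3.61) and around 0 for the genotype (median -0.07), where no gene of any list is filled. Csf2 and Csf3 are among the filled members for LPS but are not counted as calls.

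The genes whose profile over the 10 libraries was most like that of each member were found by the root mean square difference of centred log2(FPKM + 1), among 12848 other genes that averaged 1 FPKM or more. For Csf1 they were Abcg3 (0.23), Adora2a (0.24) and Pla2g15 (0.25), for Csf2 Rnd1 (0.35), Saa1 (0.44) and Tubb6 (0.44), and for Csf3 Tnf (0.21), AA467197 (0.28) and Ptafr (0.31). The nearest to Csf1r were Fgr (0.22), Igsf6 (0.23) and Clec4a3 (0.23), and to Csf2ra Cd80 (0.16), Gpr35 (0.18) and Havcr2 (0.18). Csf2rb was followed most closely by Relt (0.17), Gm14548 (0.20) and Rnf149 (0.20), and Csf3r by Ccr1 (0.34) and Adam8 (0.36). All of these profiles share their libraries and the step between saline and LPS.

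The second experiment asked whether loss of endothelial Fgfr1 under LPS went with a difference in these genes. Fgfr1 was at 2.90, 2.91 and 2.60 FPKM in loxP/loxP mice and at 0.682, 1.41 and 1.15 FPKM in iΔEC/iΔEC mice. The groups were apart, and the log2(FPKM + 1) difference was -0.88 (SE 0.16, limma adjusted p = 0.962). Its exact permutation p (two-sided) was 0.1, and no smaller value can come from 3 libraries against 3. All 7 members passed the minimum level, and 0 of 7 were called, as was none of the 14945 genes tested (0% higher and 0% lower by limma, with 661 genes, or 4.42%, at an unadjusted p under 0.05, and none by limma-voom on the reads behind the FPKM). No member had groups apart, which was seen for 899 genes (6.02%) with iΔEC/iΔEC higher and 611 (4.09%) with it lower.

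Csf1 was at 77.2, 57.9 and 50.6 FPKM in loxP/loxP 1 to 3 and at 78.6, 76.4 and 79.1 FPKM in iΔEC/iΔEC 1 to 3. The loxP/loxP libraries spread, with their highest among the iΔEC/iΔEC values, and the latter lay close together. The difference was 0.35 (95% interval -0.05 to 0.75, limma adjusted p = 0.962), and between same-numbered libraries it was 0.03, 0.40 and 0.63. Csf2 was at 11.8, 17.1 and 3.38 FPKM in loxP/loxP and 10.8, 28.9 and 9.75 FPKM in iΔEC/iΔEC mice, on 49 to 225 and 127 to 392 reads. The lowest library was loxP/loxP 3 and the highest iΔEC/iΔEC 2, and the difference of 0.63 had a wide interval, from -0.83 to 2.10 (limma adjusted p = 0.962). It rested on single libraries, being 0.03 without loxP/loxP 3, 0.16 without iΔEC/iΔEC 2 and 1.06 without loxP/loxP 2. For Csf3 the values were 12.8, 19.7 and 18.6 FPKM and 7.69, 31.9 and 16.1 FPKM, and the difference was -0.07 (-1.17 to 1.04, limma adjusted p = 0.994). Both the lowest and the highest library for Csf3 were iΔEC/iΔEC libraries.

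For the receptors, Csf1r was at 54.8, 80.4 and 68.1 FPKM in loxP/loxP and 42.5, 111 and 61.2 FPKM in iΔEC/iΔEC mice, a difference of -0.01 (95% interval -0.85 to 0.82, limma adjusted p = 0.999). Csf2ra was at 45.6, 77.2 and 69.4 FPKM and at 37.2, 85.0 and 54.5 FPKM, a difference of -0.16 (-0.96 to 0.63, adjusted p = 0.97 by limma). In both genes the iΔEC/iΔEC libraries enclosed the loxP/loxP ones, with iΔEC/iΔEC 1 lowest and iΔEC/iΔEC 2 highest. Csf2rb was at 24.1, 30.1 and 45.6 FPKM and at 15.7, 37.3 and 33.7 FPKM, differing by -0.24 (-1.12 to 0.64, limma adjusted p = 0.969), and Csf2rb2, at 18.2, 24.9 and 24.3 FPKM and 9.58, 24.5 and 18.8 FPKM, by -0.41 (-1.19 to 0.37, limma adjusted p = 0.962). Csf3r had the largest difference among the receptors, -0.59, with an interval of -1.75 to 0.57 (limma adjusted p = 0.962), on values of 52.6, 90.7 and 177 FPKM in loxP/loxP and 38.6, 85.3 and 74.2 FPKM in iΔEC/iΔEC mice. Its highest level was in loxP/loxP 3, and the difference was -0.14 without that library, -0.25 without iΔEC/iΔEC 1 and -1.01 without loxP/loxP 1. Between same-numbered libraries Csf3r differed by -0.44, -0.09 and -1.24, and the differences of each of the other receptor genes had both signs. How often all pairs share a sign was not counted over all genes, so the values between same-numbered libraries are a description. With the replicate number as a block the differences kept their size and none was called, with limma adjusted p-values of 0.646 for Csf1 and Csf3r, 0.649 for Csf2 and 0.784 to 0.992 for the others. For Csf2, Csf3 and all 4 receptor genes the intervals reach beyond 0.5 on the log2(FPKM + 1) scale in both directions, so these libraries do not show that the genotypes were alike.

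The leukocyte markers also varied between these libraries. In iΔEC/iΔEC 1 to 3 the leukocyte list was at 5.41, 6.49 and 5.87 and the monocyte and macrophage list at 4.68, 5.88 and 5.47, with the lowest library and the highest library the same as for all 4 receptor genes and Csf3. In loxP/loxP 1 to 3 they were at 5.95, 6.29 and 6.32 and at 5.15, 5.60 and 5.67, so that loxP/loxP 3 was highest in both lists, as it was for Csf2rb and Csf3r, whereas Csf1r and Csf2ra were highest in loxP/loxP 2. Between the genotypes the 10 marker lists overlapped, with adjusted exact permutation p-values of 0.75 to 0.9. Within same-numbered pairs the endothelial list differed by 0.25, 0.08 and 0.42, the epithelial list by -0.88, -0.52 and -0.94 and the mural list by -0.05, -0.15 and -0.27. The neutrophil list, against which Csf3r was set, differed by -0.56, 0.04 and -0.62, and the leukocyte list by -0.54, 0.20 and -0.46. The part of these lists in the pairwise differences of Csf1 and Csf3r was not tested. Set against its marker list, no member differed by more than 0.38 between genotypes, the value for Csf2 (exact permutation p = 0.7). In all 5 pathway lists 0 genes were called by limma, and the medians were 0.03 for related ligands and receptors, 0.02 for signal transduction, -0.04 for feedback inhibitors, -0.18 for myeloid transcription factors and -0.15 for mRNA stability factors, beside 0.01 over all genes tested. The order of the levels in loxP/loxP mice was Csf3r, Csf1r, Csf2ra, Csf1, Csf2rb, Csf3 and Csf2, and in iΔEC/iΔEC mice Csf1, Csf1r, Csf3r, Csf2ra, Csf2rb, Csf3 and Csf2. Neighbours had ranges apart for Csf1 above Csf2rb and Csf2rb above Csf3 in loxP/loxP mice, and for no pair in iΔEC/iΔEC mice.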

How the data were processed

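Total RNA of bead-isolated ECs was sequenced by the authors on an Illumina platform, aligned to GRCm38 with HISAT2 (2.0.5) and counted on genes with featureCounts (1.5.0-p3). The authors deposited FPKM with gene lengths and coordinates for 54532 genes in 2 tables that were normalized separately. Strandedness, read length, annotation release and the treatment of reads with several alignments are not given in the sources used here, and shared sequence can move reads between Csf2rb and Csf2rb2. FPKM multiplied by gene length and by library size gave whole reads for 100% of values (tolerance 0.1 reads), so read numbers are known. Symbols differed between the tables for 11 genes, and those of the first table were used.

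FPKM was scaled by median-of-ratios factors, which matched the deposited library sizes to 0.18% or better, and log2(FPKM + 1) was compared with limma (3.58.1, R 4.3.3, intensity trend) for genes averaging 0.5 FPKM or more. A gene was called where the Benjamini-Hochberg adjusted p, taken over the whole table, did not exceed 0.05 and the absolute log2 change was 1 or more. The test was tried on simulated data first. For single values and list means an exact permutation test (two-sided) was used, whose smallest p is 0.00952 for 4 libraries against 6 and 0.1 for 3 against 3. Intervals of read ratios are exact 95% intervals for counting error, and reads without molecular identifiers are not independent molecules. A level of 3 reads was taken as the floor.

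The 7 members, the marker and pathway lists and the motifs were chosen with earlier results of these data known. Genes named are the members, Csf2rb2, Il34, Fgfr1, Ptprc, Pecam1, the most abundant marker of a list, up to 4 higher and 2 lower genes of each pathway list by log2 change, and the 3 genes most like each member. Some genes that this rule names are not reported here. Jak2, Kitl, Grb2, Bcl2l1, Stat5a, Stat5b, Cish, Socs2, Gfi1, the endothelial markers called lower, the markers whose call turned without saline 1 or that were set beside Csf1r and Csf3r, and the untested genes of a list were named after their values were seen.

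Replicate numbers recur between groups. In the second experiment deviations from the group means of same-numbered libraries correlated at 0.25, 0.18 and 0.19 across genes. Those of other pairs correlated at -0.14 to -0.04. Deviations within a group cancel, so these correlations are not independent of each other. The numbers were used to describe pairs and as a block in an alternative, while the main genotype tests were unpaired. This pairing rests on the data, as the labels state none. In the first experiment the correlations were 0.10, -0.16, -0.21 and -0.12, and no pairs were described. Alternatives covered pseudocount, filter, scaling, limma-voom, trend, fold limit, the replicate block, each library left out, and saline 2 and 4 alone as the control. The last, and the marker and pathway lists without saline 1, were added after seeing the data. Python 3.11.15, numpy 2.4.6, scipy 1.17.1, pandas 2.3.3 and matplotlib 3.10.9 were used besides. Dose and genotype differ between the experiments, and levels were not compared across them.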

Additional observations from a re-analysis of the deposited data

Results flagged for a closer look

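Of 34 sets of values examined, those of the 7 members and 10 marker lists in the saline and LPS groups, 4 had a library far from its group, where 1.7 would be so by chance at 1 in 20. Csf1 in saline 1 was at 3.23 on the log2(FPKM + 1) scale, below the 4.50 to 4.60 of the other 3 saline libraries. The endothelial list in LPS 1 averaged 6.28, below the 7.01 to 7.41 of the other 5 LPS libraries, and LPS 1 was also the library with the highest level of all 4 receptor genes. Saline 3 was low in the lymphocyte list, at 1.72 against 3.18 to 3.31, and in the fibroblast list, at 2.21 against 2.70 to 2.77. No group of 3 was examined in this way.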

How the results depend on the processing

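Csf1 and the receptor genes remained called higher in LPS under every alternative run. Their log2 changes were 1.29 to 2.46 for Csf1, 4.51 to 5.54 for Csf1r, 2.87 to 3.99 for Csf2ra, 3.40 to 4.27 for Csf2rb and 2.59 to 4.51 for Csf3r. The largest limma adjusted p-values were 0.00621 for Csf1 and 0.00941 for Csf3r. Csf2 and Csf3, given as a description without a test, rose by 3.55 to 6.75 and by 4.91 to 9.55. The counts over all genes moved more. Genes lower in LPS numbered 1840 with a pseudocount of 0.1 and 2008 by limma-voom, and without a fold limit 4399 were higher and 3529 lower. When libraries were scaled to an equal endothelial list, 4775 genes were higher and 176 lower around a median of all genes of 0.63, and with total reads that median was -0.14, so the balance of higher and lower genes depends on the scaling. In the second experiment no gene was called under any alternative, and endothelial list scaling moved the median of all genes to -0.19. Near 0, the direction of the genotype difference turned when single libraries were left out: it ranged from -0.54 to 0.42 for Csf3, from -0.38 to 0.30 for Csf1r, from -0.46 to 0.12 for Csf2ra and from -0.46 to 0.14 for Csf2rb, each highest without iΔEC/iΔEC 1 and lowest without iΔEC/iΔEC 2. With the replicate block no call changed for Csf1 and the receptor genes in LPS over saline, or for any gene in the genotype comparison. The genotype difference of Csf1 was 0.35 (limma adjusted p = 0.646). LPS over saline gave 1925 genes higher and 1063 lower (1768 and 1011 without the block), although the numbers of that experiment are only shared labels. Without saline 1, an alternative added after seeing the data, the lymphocyte list (-0.89) and the fibroblast list (-0.44) lost an unadjusted exact permutation p under 0.05 and the mast cell and basophil list turned from -0.05 to 0.10, while the other lists and the members relative to them kept direction and side, and of single genes in the lists Kitl, Clec9a and Tcf21 became called lower and Jak2, Grb2, Bcl2l1, Retnlg, Ngp and Acta2 higher, while Vwf, Cd79a, Ms4a1, Scgb1a1 and Pdgfrb lost their calls. Depth limits Csf2 and Csf3 in saline, where no library held more than 7 reads of either gene, and with 3 libraries a group the genotype intervals are wide.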
